A study of Mus musculus with 6 samples.

Results

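The genes described here are 27 genes of cholesterol synthesis and of its control by the sterol-sensing transcription factors SREBP, a set chosen by gene symbol. All probe sets annotated to 1 of these symbols alone were taken from an expression array study of mouse cortex, and the probe set with the highest mean over the 6 arrays stood for its gene. Of the 27 genes, 26 had such a probe set and all 26 passed a minimum geometric mean intensity of 50, among 18193 named genes in all, of which 12248 passed. Acat2, the cytosolic thiolase at the start of the pathway, was not analysed here.

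The fluoxetine group comprised 3 arrays from S100a10 bacTRAP mice (line ES691) that drank fluoxetine at 0.167 mg/ml with 1% saccharine for 15 to 18 days, and the vehicle group 3 arrays from mice of the same line that drank 1% saccharine alone. Fluoxetine is an antidepressant that blocks serotonin reuptake. The control region of S100a10 drives a tagged ribosomal protein in these mice, so that ribosomes and the RNA bound to them can be purified from the cells that use it (TRAP). All mice carried this transgene on a background crossed from FVB to C57BL/6 for 3 to 5 generations, and the tissue was cortex. The submitters state that the line marks some non-neuronal cells as well. The 3 replicates of a group are labelled as biological, the labels do not say how many animals each one held, and p-values measure the spread between these samples only.

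Cholesterol is built from acetyl-CoA through mevalonate, isoprenoid units, squalene and lanosterol, and much of the adult brain's cholesterol is made locally because the blood supplies little of it. Glia are known as the main producers, and myelin holds a large share. When sterols run low in the endoplasmic reticulum, the escort protein Scap carries SREBP to the Golgi, where proteases release the part that switches on the enzymes of the pathway. Insig proteins hold Scap back when sterols are plentiful. An excess of sterols is sensed by LXR receptors, which raise exporters such as Abca1.

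SREBP binds sterol response elements in promoters next to boxes for the factor NF-Y, so the promoter sequences of 5 genes that the results below turn on are shown. Each is the 250 bases before the transcription start in RefSeq (build GRCm38.p6), 5′ to 3′ on the gene's strand. Capitals mark the NF-Y box (CCAAT, or ATTGG for the opposite strand), the E-box CACGTG, which SREBP can also bind, and the sterol response element TCACNCCAC. Tm7sf2 and Insig1 are the 2 of 26 tested genes whose groups did not overlap. Both were lower with fluoxetine, as held without overlap for 5.99% of all genes. Idi1 and Hmgcs1 are enzymes of the mevalonate pathway, and Abca1 is the exporter controlled by LXR.
Tm7sf2, chr19:6067851-6068100, minus strand: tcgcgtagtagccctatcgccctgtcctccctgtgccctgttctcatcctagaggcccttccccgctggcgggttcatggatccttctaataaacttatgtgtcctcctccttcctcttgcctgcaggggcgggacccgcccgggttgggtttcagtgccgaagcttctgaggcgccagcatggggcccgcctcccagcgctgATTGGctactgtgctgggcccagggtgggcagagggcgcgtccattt
Insig1, chr5:28071162-28071411, plus strand: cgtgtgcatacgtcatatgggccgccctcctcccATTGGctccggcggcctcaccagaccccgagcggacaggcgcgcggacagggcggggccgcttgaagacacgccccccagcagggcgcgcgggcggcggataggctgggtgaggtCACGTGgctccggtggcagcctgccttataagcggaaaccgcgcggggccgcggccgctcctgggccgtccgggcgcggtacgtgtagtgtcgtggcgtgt
Idi1, chr13:8885356-8885605, plus strand: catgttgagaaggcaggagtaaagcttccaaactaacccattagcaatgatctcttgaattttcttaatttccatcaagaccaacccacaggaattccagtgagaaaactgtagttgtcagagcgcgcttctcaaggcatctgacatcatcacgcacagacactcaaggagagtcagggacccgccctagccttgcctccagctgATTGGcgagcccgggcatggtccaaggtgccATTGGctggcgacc
Hmgcs1, chr13:119690101-119690350, plus strand: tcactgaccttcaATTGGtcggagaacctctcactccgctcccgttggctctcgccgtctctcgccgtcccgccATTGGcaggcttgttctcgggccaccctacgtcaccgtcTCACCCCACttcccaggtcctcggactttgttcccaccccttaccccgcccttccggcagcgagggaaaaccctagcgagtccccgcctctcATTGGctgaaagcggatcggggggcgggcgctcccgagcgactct
Abca1, chr4:53159896-53160145, minus strand: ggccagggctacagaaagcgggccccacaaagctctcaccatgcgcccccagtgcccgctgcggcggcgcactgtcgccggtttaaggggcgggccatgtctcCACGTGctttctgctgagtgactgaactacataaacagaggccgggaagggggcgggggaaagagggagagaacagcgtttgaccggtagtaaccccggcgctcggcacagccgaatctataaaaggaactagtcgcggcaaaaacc

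Of the 27 genes, 23 had an entry in the promoter table, with 31 promoters in all (250 bases before to 50 after the start). An NF-Y box on either strand lay in 21 of the 31, against 37.4% of all 32851 promoters in the table and 37.1% of those of genes tested on the arrays. The E-box lay in 7 of the 31, from the 6 genes Abca1, Dhcr7, Hsd17b7, Insig1, Sc5d and Scap, against 7.15% of all promoters and 9.67% of those of tested genes. The strict sterol response element lay in 1, that of Hmgcs1 at position −137 from the start, against 1.24% of all promoters and 1.09% of those of tested genes. Among the sequences shown, Abca1 holds no NF-Y box and Hmgcs1 holds 3. These matches describe the letters in these windows only; none of these motifs overlaps another.

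The arrays had median intensities of 47.3 to 48.6 and correlated at 0.993 to 0.997 in log2 intensity across probe sets. S100a10, the driver gene, had a log2 intensity of 15.08 ± 0.09 with fluoxetine, against 15.15 ± 0.07 with vehicle (SD, n = 3 per group). All 9 measured markers of cortical projection neurons passed the minimum intensity, and so did all 15 astrocyte markers, 11 of 12 oligodendrocyte markers, 5 of 9 microglial markers and 6 of 8 endothelial markers. Mog of oligodendrocytes, Aif1, Itgam, C1qc and P2ry12 of microglia, and Pecam1 and Tek of endothelium stayed below it. Gfap of astrocytes passed it only through fluoxetine 1 and 3. The labelled cells' markers were thus present, together with markers of other cell types. In such bulk RNA, fewer cells of a type and less RNA per cell cannot be told apart.

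The comparison asks whether prolonged fluoxetine alters the ribosome-bound RNA of S100a10 cells. None of the 26 sterol genes passed limma's moderated test, fitted over all 22326 probe sets, at a Benjamini-Hochberg adjusted p under 0.05. The smallest adjusted p among them was 0.999, and of all probe sets 0% passed. At an unadjusted p under 0.05, 2 of the 26 were lower with fluoxetine, Tm7sf2 and Insig1, and 0 were higher, where 1.95% of all genes (1.78% of all probe sets) were lower and 0.71% (0.739% of probe sets) higher.

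Most of the sterol genes had a lower mean with fluoxetine, and so did most genes on the arrays. Of the 26, 21 were lower and 5 higher, with a median difference of −0.12 on the log2 scale, where 68.5% of all genes were lower with a median of −0.06. After quantile normalization 18 of the 26 were lower, with a median of −0.05 and 50.8% of all genes lower, and after shifting the arrays to a common median 18 were lower, with a median of −0.06 and 50.6% of all genes lower. By role, 6 of 7 mevalonate pathway genes, 3 of 3 from squalene to lanosterol, 8 of 9 from lanosterol to cholesterol, 3 of 5 SREBP genes and 1 of 2 transport genes were lower. For 15 of the 26 the standard error was larger than the difference itself.

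**Figure D1:**
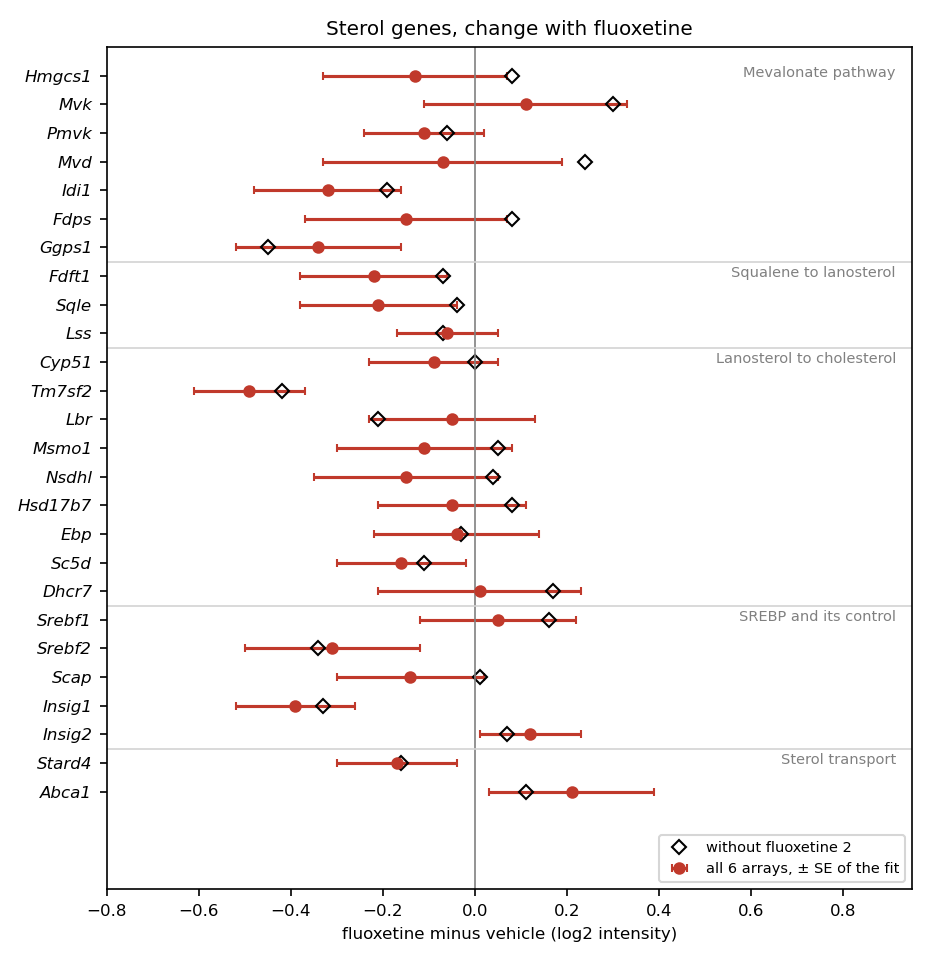
Difference between fluoxetine and vehicle (log2 intensity) for the 26 sterol genes in pathway order, as filled points with the standard error of the fit, and without the array fluoxetine 2 as open diamonds. Tm7sf2 (−0.49) and Insig1 (−0.39) lie furthest below 0. Without fluoxetine 2, 13 of the 26 diamonds lie below 0, where 57.2% of all genes were lower.

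Fluoxetine 2 held the lowest value of the 6 arrays for 16 of the 26 genes, against 32.2% of all genes. Its median distance from the mean of the other 5 arrays was −0.35 for the sterol genes and −0.09 for all genes (log2). Among the 19 enzymes it was lowest for 14. Fluoxetine 1 lay at the other end, highest for 10 of the 26 genes, against 25.6% of all genes, with a median distance of 0.16. The mean log2 intensity over the 26 genes was 10.55, 10.20 and 10.35 on fluoxetine 1 to 3, against 10.44, 10.51 and 10.53 on vehicle 1 to 3. Fluoxetine 2 and 3 thus lay below all 3 vehicle arrays, and fluoxetine 1 lay just above the highest of them, vehicle 3.

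Without fluoxetine 2, 13 of the 26 genes were lower, the median difference was −0.01, and 57.2% of all genes were lower. Leaving out any other array gave 19 to 23 lower genes and medians of −0.23 to −0.11, with 58.8% to 73% of all genes lower. The 23 came without fluoxetine 1, as did the 73%. The spread within the fluoxetine group was larger than within the vehicle group for 19 of the 26 genes, against 61.9% of all genes. After quantile normalization fluoxetine 2 was lowest for 12 of the 26 (21% of all genes), and after the common median shift for 11 (19.5%).

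**Figure D2:**
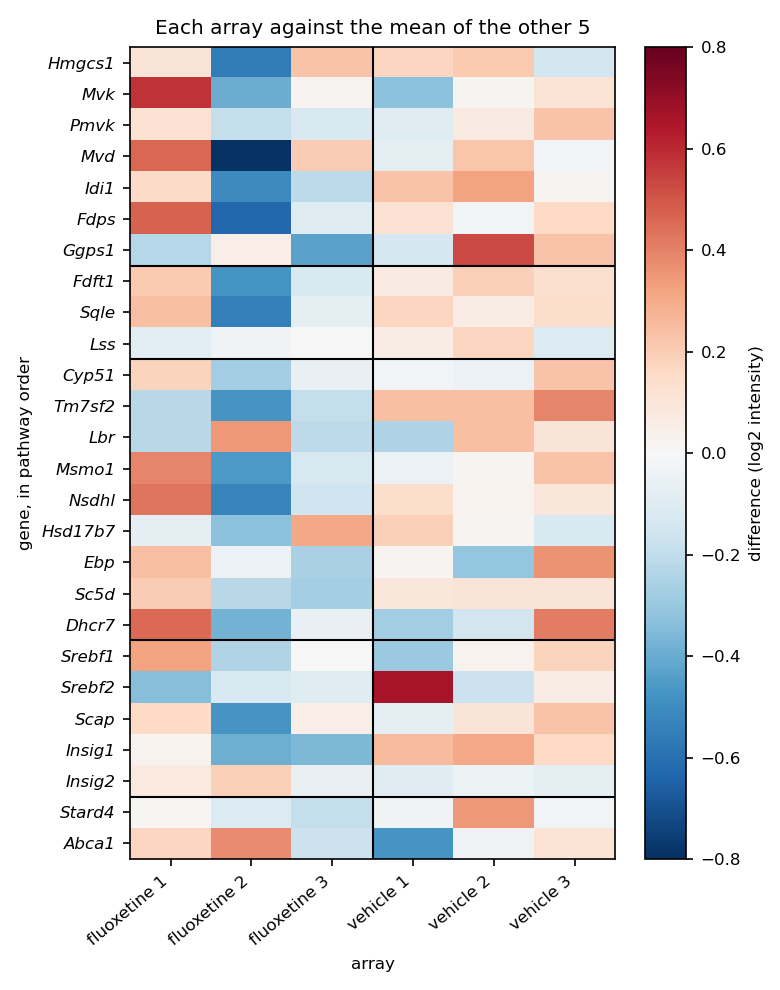
Each cell shows how far 1 array lies from the mean of the other 5 (log2 intensity, blue lower, red higher) for 1 sterol gene, with genes in pathway order, fluoxetine arrays left of the line and vehicle arrays right of it. The column of fluoxetine 2 is blue in most rows (lowest array for 16 of 26 genes) but red for Lbr, Insig2 and Abca1, whose highest array it is (3 of 26 genes, against 9.14% of all genes).

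Of the mevalonate pathway, Hmgcs1, the synthase of HMG-CoA, measured 14.83, 14.28 and 14.94 with fluoxetine, against 14.89, 14.93 and 14.62 with vehicle (log2 intensity). Fluoxetine 2 was the lowest and fluoxetine 3 the highest of all 6, so the groups overlapped (difference −0.13 ± 0.20, log2, SE), and its 3 further tested probe sets differed by −0.16 to −0.04. Mvk, mevalonate kinase, measured 8.55, 7.74 and 8.09 with fluoxetine, against 7.80, 8.09 and 8.16 with vehicle. It was 1 of the 2 enzymes with a higher mean (0.11 ± 0.22), and its highest array was fluoxetine 1 and its lowest fluoxetine 2. Pmvk, the next kinase, lay between 11.30 and 11.56 with fluoxetine and between 11.38 and 11.65 with vehicle. Its groups overlapped and differed by −0.11 ± 0.13.

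Mvd, the decarboxylase that makes isopentenyl diphosphate, measured 8.35, 7.30 and 8.13 with fluoxetine, against 7.90, 8.14 and 7.95 with vehicle. The fluoxetine values spanned more than the vehicle values on both sides (difference −0.07 ± 0.26, log2, SE, and 0.24 without fluoxetine 2). A second tested probe set of Mvd had the opposite sign, at 0.04 ± 0.18. Fdps, the synthase of farnesyl diphosphate, measured 9.36, 8.44 and 8.88 with fluoxetine, against 9.07, 8.94 and 9.10 with vehicle. Again fluoxetine 1 was the highest and fluoxetine 2 the lowest array (difference −0.15 ± 0.22, and 0.081 without fluoxetine 2).

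Idi1, the isomerase of isopentenyl diphosphate, measured 11.56, 11.01 and 11.26 with fluoxetine, against 11.63, 11.70 and 11.45 with vehicle. Only fluoxetine 1 reached into the vehicle range, and the difference was −0.32 ± 0.16 (log2, SE, limma adjusted p = 0.999). Its other probe set measured 11.31, 11.16 and 10.94 with fluoxetine, against 11.63, 11.71 and 11.42 with vehicle. There the groups did not overlap (difference −0.45). Ggps1, which makes the geranylgeranyl diphosphate used to anchor proteins rather than to build sterols, measured 10.46, 10.71 and 10.30 with fluoxetine, against 10.54, 11.10 and 10.85 with vehicle. Its difference was −0.34 ± 0.18, its 3 further probe sets differed by −0.31 to −0.19, and fluoxetine 2 was not the lowest array.

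Of the steps from squalene to lanosterol, Fdft1, squalene synthase, measured 14.13, 13.56 and 13.86 with fluoxetine, against 14.02, 14.12 and 14.07 with vehicle. The vehicle arrays lay close together while the fluoxetine arrays spanned both sides of them (difference −0.22 ± 0.16, log2, SE). Sqle, the epoxidase that is a rate-limiting step, measured 11.77, 11.12 and 11.51 with fluoxetine, against 11.72, 11.62 and 11.69 with vehicle. Here too fluoxetine 1 was the highest and fluoxetine 2 the lowest array, with a difference of −0.21 ± 0.17, or −0.036 without fluoxetine 2. Lss, which closes the sterol rings, lay between 8.61 and 8.69 with fluoxetine and between 8.59 and 8.82 with vehicle. Its difference was −0.06 ± 0.11, and it varied little between arrays.

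Of the steps from lanosterol to cholesterol, Tm7sf2, a sterol C14 reductase, had the largest difference among the 26 genes. It measured 10.28, 10.07 and 10.30 with fluoxetine, against 10.66, 10.66 and 10.79 with vehicle (log2 intensity). All fluoxetine arrays lay below all vehicle arrays, as held for 5.99% of all genes, while 2.32% had all fluoxetine arrays above. The difference was −0.49 ± 0.12 (log2, SE), a fold of 0.713, with an unadjusted p of 0.00401 and an adjusted p of 0.999 in limma's test. Leaving out each array in turn gave −0.53 to −0.42, quantile normalization −0.42 and the common median −0.43. Tm7sf2 has 1 probe set, so no second one could be set beside it.

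Lbr, a protein of the nuclear envelope that carries out the same reduction as Tm7sf2, measured 8.98, 9.46 and 8.99 with fluoxetine, against 8.96, 9.37 and 9.25 with vehicle. Its highest array was fluoxetine 2, where most sterol genes were lowest, and the groups overlapped (difference −0.05 ± 0.18, log2, SE, with a positive sign after either rescaling). Cyp51, the lanosterol demethylase, lay between 9.35 and 9.73 with fluoxetine and between 9.54 and 9.78 with vehicle (difference −0.09 ± 0.14). Its second tested probe set differed by −0.23. For both genes the difference was within 1 standard error of 0 and fluoxetine and vehicle arrays overlapped.

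Msmo1, the C4 methylsterol oxidase, measured 11.26, 10.56 and 10.83 with fluoxetine, against 10.90, 10.95 and 11.13 with vehicle. Nsdhl, which acts with Msmo1 to remove the methyl groups, measured 11.24, 10.44 and 10.75 with fluoxetine, against 11.00, 10.91 and 10.96 with vehicle. In both, fluoxetine 1 was the highest and fluoxetine 2 the lowest of the 6 arrays, with differences of −0.11 ± 0.19 and −0.15 ± 0.20 (log2, SE). Hsd17b7, the ketoreductase of the same stretch, lay between 10.46 and 11.00 with fluoxetine and between 10.64 and 10.90 with vehicle. Its difference of −0.05 ± 0.16 turned positive after either rescaling, and so did that of Ebp, the sterol isomerase (−0.04 ± 0.18).

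Ebp lay between 10.57 and 10.98 with fluoxetine and between 10.53 and 11.08 with vehicle, the vehicle arrays enclosing the fluoxetine arrays. Sc5d, the C5 desaturase, measured 10.46, 10.11 and 10.07 with fluoxetine, against 10.37, 10.38 and 10.37 with vehicle. The vehicle arrays were nearly equal and 2 of the 3 fluoxetine arrays lay below them (difference −0.16 ± 0.14, log2, SE, and −0.01 for its second tested probe set). Dhcr7, the reductase of the last step to cholesterol, measured 10.03, 9.34 and 9.60 with fluoxetine, and its vehicle arrays lay between the first 2 of these values. The vehicle mean was 9.65 ± 0.31 (SD, n = 3) and the groups overlapped, with a difference of 0.01 ± 0.22.

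**Figure D3:**
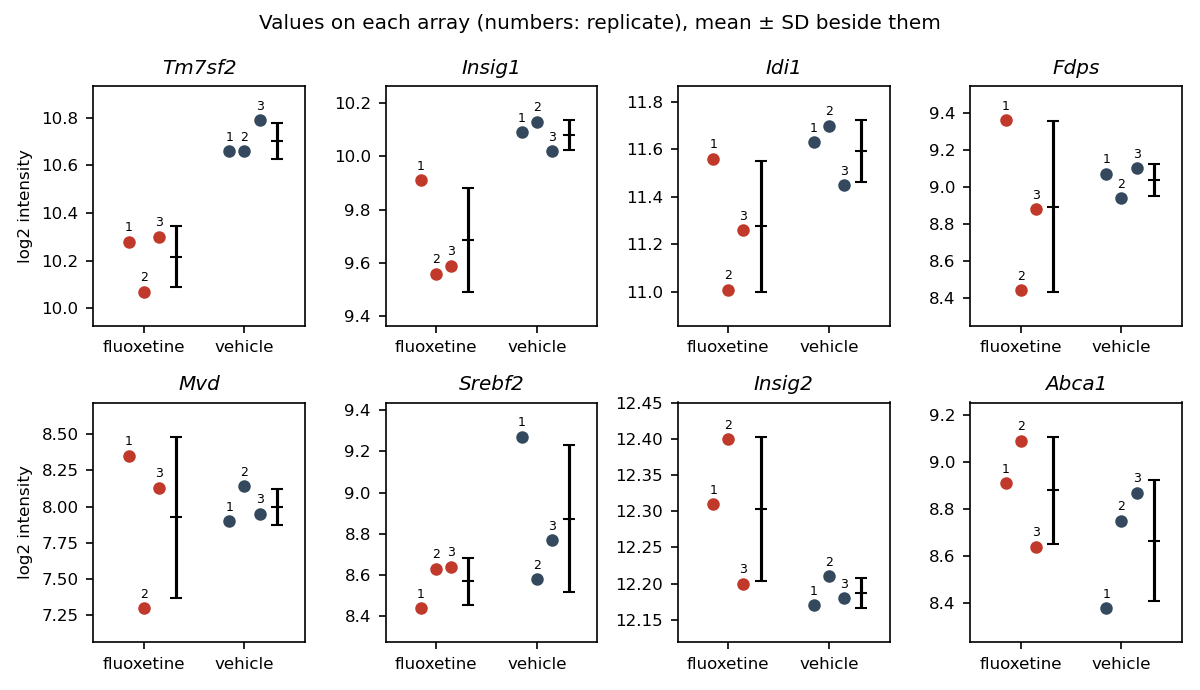
Log2 intensity of 8 sterol genes on each array, numbered by replicate, with the mean and SD of 3 arrays beside the points; the vertical axes differ between panels and do not start at 0. The groups are apart for Tm7sf2 and Insig1 (2 of 26 sterol genes, against 5.99% of all genes lower without overlap). For Fdps and Mvd fluoxetine 1 lies above and fluoxetine 2 below all vehicle arrays.

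Of the control genes, Insig1, which holds Scap in the endoplasmic reticulum and is itself an SREBP target, measured 9.91, 9.56 and 9.59 with fluoxetine, against 10.09, 10.13 and 10.02 with vehicle. The groups did not overlap, with fluoxetine lower, as held for 2 of the 26 sterol genes and 5.99% of all genes. The difference was −0.39 ± 0.13 (log2, SE), a fold of 0.761, with an unadjusted p of 0.0201 and an adjusted p of 0.999 in limma's test. Leaving out each array in turn gave −0.51 to −0.33. Insig1 also has 1 probe set. Its relative Insig2, with the same holding role but no known dependence on SREBP, measured 12.31, 12.40 and 12.20 with fluoxetine, against 12.17, 12.21 and 12.18 with vehicle. The mean of Insig2 was higher with fluoxetine by 0.12 ± 0.11, its highest array was fluoxetine 2, and its other probe sets differed by 0.06 and −0.07.

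Srebf2, the SREBP gene tied most closely to cholesterol synthesis, measured 8.44, 8.63 and 8.64 with fluoxetine, against 9.27, 8.58 and 8.77 with vehicle. Vehicle 1 stood above the other 5 arrays, and without it the difference of −0.31 ± 0.19 (log2, SE) was −0.11. A second probe set of Srebf2 measured 5.89, 5.56 and 5.86 with fluoxetine, against 5.93, 5.97 and 6.12 with vehicle. There vehicle 1 did not stand apart, and the groups did not overlap (difference −0.24). Srebf1, whose SREBP1c form drives fatty acid synthesis, lay between 9.09 and 9.56 with fluoxetine and between 9.04 and 9.44 with vehicle (difference 0.05 ± 0.17). Scap measured 11.87, 11.35 and 11.78 with fluoxetine, against 11.68, 11.82 and 11.93 with vehicle. Fluoxetine 2 alone lay below the vehicle range (difference −0.14 ± 0.16, and 0.013 without it).

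Of the transport genes, Stard4, a carrier that moves cholesterol between membranes, lay between 10.41 and 10.57 with fluoxetine and between 10.54 and 10.86 with vehicle (difference −0.17 ± 0.13, log2, SE). Its 2 other probe sets disagreed in sign, at −0.32 and 0.05. Abca1, the exporter of cholesterol to lipoproteins, measured 8.91, 9.09 and 8.64 with fluoxetine, against 8.38, 8.75 and 8.87 with vehicle. Of the 26 genes it had the largest difference in the upward direction, 0.21 ± 0.18, with overlapping groups, its highest value on fluoxetine 2, and a difference of 0.071 without vehicle 1.

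Further probe sets exist for many of these genes. Of 58 probe sets for the 26 genes, 46 passed the minimum intensity, 20 of them beside the brightest. Of those 20, 17 had the sign of their gene's brightest probe set, 16 were lower with fluoxetine, and 15 were lower without fluoxetine 2. The groups lay apart with fluoxetine lower for 4 (1 each of Idi1, Ggps1, Srebf2 and Stard4), as held for 5.23% of all tested probe sets. That of Srebf2 lay near the minimum intensity. Fluoxetine 2 was the lowest array for 8 of the 20, against 32.2% of all genes by their brightest probe set. Probe sets of 1 gene share its RNA and are no replicates, and 9 of the genes had no second probe set.

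Of the related genes, none passed the test over all probe sets. Of 16 fatty acid and triglyceride genes known as SREBP1 targets, 10 were lower and 6 higher (median −0.03, log2). Of all genes, 68.5% were lower, with a median of −0.06. For 11 of the 16 fluoxetine 2 was the lowest array, against 32.2% of all genes. Without fluoxetine 2 their median was 0.14. Acaca, the carboxylase that starts fatty acid synthesis, measured 9.50, 9.10 and 9.48 with fluoxetine, against 9.64, 9.70 and 9.57 with vehicle, without overlap. Acly, which supplies cytosolic acetyl-CoA, measured 13.90, 13.88 and 13.98 with fluoxetine, against 14.02, 14.03 and 14.06 with vehicle, also without overlap. These were 2 of the 16 genes, where 5.99% of all genes had all fluoxetine arrays below all vehicle arrays. Thrsp, a lipogenic protein, differed by 0.53 ± 0.32 (log2, SE) with overlapping groups.

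Among 8 measured enzymes of isoprenoid side branches and nearby steps, 5 were lower (median −0.02, log2), against 68.5% of all genes. Dhdds, a subunit of the dolichol-making enzyme, differed by −0.22 ± 0.16 (SE). Among 8 measured genes that process SREBP or sense sterols, 6 were lower (median −0.07), against the same 68.5%. Mbtps1, the site-1 protease that makes the first cut in SREBP, measured 10.80, 10.79 and 10.77 with fluoxetine, against 10.86, 11.27 and 10.99 with vehicle. Its groups did not overlap (difference −0.25 ± 0.13), and the same held for Rnf139 at −0.12 ± 0.11, so 2 of the 8 were lower without overlap, against 5.99% of all genes. Among 15 measured genes of sterol uptake, transport and turnover, 9 were lower (median −0.06), again against 68.5% of all genes. That list's median was −0.15 without vehicle 1 and −0.01 without fluoxetine 2. Gramd1a, a sterol carrier at membrane contacts, differed by −0.27 ± 0.14. After quantile normalization the medians of the 4 related lists were above 0, at 0.05 for the fatty acid genes, 0.04 for the side branch enzymes, 0.01 for the processing genes and 0.02 for the uptake and transport genes.

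Markers of several cell types differed between arrays, in different orders. The 15 astrocyte markers had a median distance from the other arrays of 0.49 on fluoxetine 1, −0.36 on fluoxetine 2 and 0.15 on fluoxetine 3, against −0.15, −0.05 and 0.02 on vehicle 1 to 3 (log2). Of the 15, 9 had a higher and 6 a lower mean with fluoxetine, where 68.5% of all genes were lower. The summed intensity of the 15 ran between 63658 and 76631 with fluoxetine and between 62873 and 71104 with vehicle. Gfap, the astrocyte filament, measured 12.13, 4.49 and 9.02 with fluoxetine, against 4.70, 5.24 and 5.67 with vehicle. Fluoxetine 1 and 3 stood above every vehicle array and fluoxetine 2 below them all. Sox9, an astrocyte transcription factor with the smallest unadjusted p of the list, measured 8.89, 8.74 and 8.68 with fluoxetine, against 8.17, 8.16 and 8.23 with vehicle. All its fluoxetine arrays, fluoxetine 2 included, lay above all vehicle arrays (adjusted p = 0.999 in limma's test). Such separation held for 2 of the 15 markers, against 2.32% of all genes. On fluoxetine 2, 10 of the 15 markers lay below the mean of the other arrays and 5 above it.

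The 11 measured oligodendrocyte markers lay lowest on fluoxetine 2 for 5 genes, against 32.2% of all genes. Their median distance was −0.33 there and 0.03 to 0.17 on the 5 other arrays. Their summed intensity ran between 18244 and 27242 with fluoxetine and between 24973 and 27011 with vehicle. The 5 measured markers of oligodendrocyte precursors had a summed intensity of 5128, 2061 and 3334 with fluoxetine, against 2380, 2839 and 2874 with vehicle, fluoxetine 2 being the lowest array. The 5 measured microglial markers had median distances of −0.19, −0.01 and 0.61 with fluoxetine, against −0.54, 0.03 and 0.15 with vehicle, highest on fluoxetine 3. Their summed intensity ran between 1546 and 2226 with fluoxetine and between 1403 and 1859 with vehicle.

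The 5 measured pericyte and smooth muscle markers were all lower with fluoxetine, by a median of −0.41 (log2), where 68.5% of all genes were lower. All 5 stayed lower with each array left out in turn, at medians of −0.54 to −0.29. Their summed intensity was 6889, 9205 and 7968 with fluoxetine, against 8568, 10670 and 13485 with vehicle, and fluoxetine 1, not fluoxetine 2, was the lowest array. The 6 measured endothelial markers had a summed intensity between 934 and 1196 with fluoxetine and between 1014 and 1406 with vehicle. The 8 inhibitory neuron markers had median distances of −0.16, −0.22 and 0.03 with fluoxetine, against 0.01, −0.05 and 0.19 with vehicle, lowest on fluoxetine 2. Their summed intensity ran between 19696 and 26639 with fluoxetine and between 22170 and 23294 with vehicle. Cortical projection neuron markers had median distances of −0.18, 0.06 and −0.07 with fluoxetine, against 0.01, 0.07 and 0.06 with vehicle, and their summed intensity ran between 90414 and 101943 with fluoxetine and between 97840 and 103439 with vehicle. Nuclear and non-coding transcripts, a sign of RNA quality, had median distances of −0.39, 0.18 and −0.07 with fluoxetine, against 0.33, 0.36 and −0.14 with vehicle. Of these 6 transcripts, 5 had a lower mean with fluoxetine, where 68.5% of all genes did. Their mean log2 intensity was 7.19, 7.83 and 7.79 with fluoxetine, against 8.03, 7.97 and 7.29 with vehicle. The low arrays were thus fluoxetine 1 and vehicle 3, 1 from each group. The part of these markers in the sterol genes' values was not tested.

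**Figure D4:**
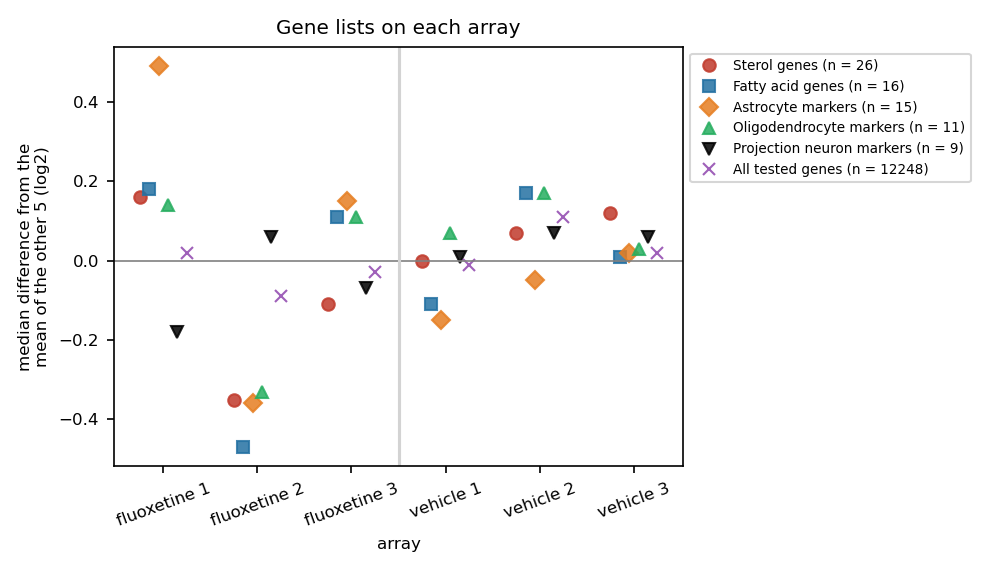
Median difference of each array from the mean of the other 5 (log2 intensity) for the sterol genes, fatty acid genes, 3 lists of cell type markers and all tested genes, with fluoxetine arrays left of the line. On fluoxetine 2 the sterol genes (−0.35), fatty acid genes (−0.47), astrocyte markers (−0.36) and oligodendrocyte markers (−0.33) lie below all tested genes (−0.09), and projection neuron markers (0.06) do not.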

How the data were processed

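The series holds 6 single-colour Affymetrix arrays of TRAP RNA from mouse cortex, 3 per group; 15 ng of RNA per sample was amplified in 2 rounds, per the labels. The authors normalized the arrays with GCRMA (version not stated), per the submitters' processing notes, and deposited 1 intensity per probe set and array; the range of 1.74 to 99076 shows a linear scale. GCRMA removes a background predicted from probe sequence and scales the arrays to each other, so low values are compressed and part of a shift common to most genes may be lost. The deposited arrays still differed in level. Their upper quartiles ran from 498.4 (fluoxetine 2) to 574.3 (vehicle 2), and 68.5% of all genes were lower with fluoxetine, against 50.8% after quantile normalization. The submitters advise a minimum intensity of 50 and a restriction to a probe set list of their paper; that list was not applied. No read depth exists for arrays; their number limits the precision.

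Of 45101 probe sets, 64 array controls were left out. Names came from the platform annotation (34945 probe sets with 1 symbol, 932 with several, 9160 with none). Values were taken to log2 without an offset. Probe sets with a geometric mean of at least 50 (22326) were fitted with limma 3.58.1 in R 4.3.3 (lmFit, eBayes, two-sided, Benjamini-Hochberg over all of them), fluoxetine minus vehicle. The fit was checked on simulated arrays. The median standard error was 0.171 for the sterol genes and 0.154 for all probe sets. Probe sets whose identifiers end in _s_at or _x_at, such as the brightest of Mvd, Fdft1 and Hsd17b7, may match more than 1 transcript.

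The members, gene lists and tests were chosen with earlier results of these data known, so lists are described by counts and medians without a test. Named outside the 26 genes are S100a10 and up to 4 genes per list with the smallest unadjusted p, besides Mog, Aif1, Itgam, C1qc, P2ry12, Pecam1 and Tek, named after their values were seen as markers below the minimum. The alternatives were the replicate number as a block, 3 settings of the minimum, an offset of 16, quantile normalization over all probe sets, a shift to a common median of the tested probe sets, trended and robust variances, averaging a gene's probe sets, its other probe sets, and leaving out each array in turn.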

Additional observations from a re-analysis of the deposited data

How the results depend on the processing

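No probe set passed the threshold in limma under any of the alternatives, the sterol genes included. The smallest adjusted p of a sterol gene in limma was 0.908. It was taken over the fits with the offset, either rescaling, the replicate block or 1 array left out. Unadjusted p-values under 0.05 numbered 165 higher and 398 lower probe sets in the deposited scaling, 267 and 209 after quantile normalization, 327 and 170 after the common median, 1728 and 903 without a minimum intensity, and 103 and 247 with the replicate block. Same-numbered arrays of the 2 groups did not deviate together (correlations −0.253, −0.027 and −0.502), and unlike-numbered arrays gave −0.270 to 0.431. Deviations within a group of 3 arrays depend on each other, so these values cannot exclude that same-numbered samples were prepared together. Whether the numbers pair the samples is not known. With the replicate block 0 sterol genes passed. Each number holds 1 array per group, so the block leaves every difference unchanged by design and alters only the p-values. The 21 of 26 lower genes and the median of −0.12 under it are thus no separate check. Leaving out each array in turn gave 13 to 23 lower sterol genes, 13 being without fluoxetine 2, with 57.2% to 73% of all genes lower. For the other sterol and isoprenoid enzymes it gave medians of −0.15 (without fluoxetine 1) to 0.03. Of 286 recomputed differences of single sterol genes, those of the replicate block included although they could not change, 27 changed sign. In all of them 13 genes kept their sign, Tm7sf2, Insig1, Idi1, Ggps1, Srebf2 and Abca1 among them. Part of this was fixed in advance. As the groups of Tm7sf2 and Insig1 did not overlap, leaving out 1 array could not change their sign. Averaging probe sets could not change genes without a second tested probe set, such as Tm7sf2, Insig1 and Abca1. After quantile normalization Lbr was 0.017, Hsd17b7 0.027 and Ebp 0.038, and after the common median they were 0.012, 0.011 and 0.019. Leaving out each array in turn gave −0.19 to 0.003 for Cyp51, −0.18 to 0.18 for Dhcr7, −0.18 to 0.096 for Ebp, −0.38 to 0.081 for Fdps, −0.26 to 0.075 for Hmgcs1, −0.19 to 0.076 for Hsd17b7, −0.21 to 0.037 for Lbr, −0.30 to 0.052 for Msmo1, −0.28 to 0.24 for Mvd, −0.10 to 0.30 for Mvk, −0.36 to 0.038 for Nsdhl, −0.25 to 0.013 for Scap and −0.077 to 0.16 for Srebf1. The cause of these sign changes was not tested. With 3 arrays per group, no difference of a sterol gene, the largest included, could be told from 0 after adjustment over all probe sets.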
